A study of Mus musculus with 20 samples.

Results

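The S100 genes examined here are *S100a8*, *S100a9*, *S100a4*, *S100a6*, *S100a10* and *S100a11*, chosen by gene symbol, and they are 6 of the 24421 genes counted in RNA-seq of mouse bone marrow neutrophils. All 6 passed the filter on low counts. The 20 libraries came from 4 groups of 5 female mice: WT untreated, KO untreated, WT IMQ and KO IMQ. KO stands for the myeloid conditional knockout of the clock gene *Bmal1* (*Bmal1* Mye-/-), in which both *Bmal1* alleles are flanked by loxP sites and Cre recombinase is made from the *Lyz2* locus of myeloid cells, so that monocytes and macrophages are targeted as well as neutrophils. WT mice were C57BL/6J animals from a supplier that carried neither the floxed alleles nor Cre, whereas the KO mice were bred in-house. IMQ is imiquimod, a Toll-like receptor agonist spread on the skin as a cream for 6 weeks from young adulthood to induce a lupus-like disease, and untreated mice received none. Neutrophils were enriched by magnetic negative selection, which removes other cells by their surface markers, and mice were killed in the morning, so a single part of the day was sampled. The comparisons asked whether IMQ and the loss of *Bmal1* changed the S100 genes.

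S100 proteins are small proteins with a pair of calcium-binding EF-hand loops that mostly act as dimers. *S100a8* and *S100a9* form calprotectin, a heterodimer that is among the most abundant proteins of the neutrophil cytosol, binds zinc and manganese away from microbes, and acts on Toll-like receptor 4 when it is released. The other members work largely inside the cell: *S100a4* binds non-muscle myosin, *S100a6* (calcyclin) binds *Cacybp* and *Sugt1*, *S100a10* (p11) binds annexin A2 and has lost the ability to bind calcium, and *S100a11* binds annexin A1. *S100a4*, *S100a6*, *S100a10* and *S100a11* are also well expressed in monocytes and many other cell types.

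On GRCm38.p6, the assembly behind mm10, the 6 genes lie on chromosome 3. *S100a4* (chr3:90603770-90606045), *S100a6* (chr3:90612894-90614414) and *S100a8* (chr3:90669071-90670034) are on the plus strand, and *S100a9* (chr3:90692630-90695721) follows on the minus strand. *S100a11* (chr3:93520496-93526288) and *S100a10* (chr3:93555117-93564645) are neighbours further along the chromosome, both on the plus strand. No other RefSeq gene overlaps any of the 6. The 250 bases before the start site, from RefSeq, are shown for the calprotectin pair, for *S100a4* and for *S100a11*, because each holds 1 match to a motif that was searched on both strands. Capitals mark the match: the TATA box motif (TATAAA) in *S100a8* and *S100a4*, the C/EBP motif (TTGCNNAA) in *S100a9*, and the E-box to which *Bmal1* binds with its partner *Clock* (CACGTG) in *S100a11*.
S100a8: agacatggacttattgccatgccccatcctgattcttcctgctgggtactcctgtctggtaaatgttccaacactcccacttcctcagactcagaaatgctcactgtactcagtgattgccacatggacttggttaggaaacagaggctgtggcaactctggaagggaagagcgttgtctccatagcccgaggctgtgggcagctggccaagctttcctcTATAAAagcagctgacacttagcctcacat
S100a9: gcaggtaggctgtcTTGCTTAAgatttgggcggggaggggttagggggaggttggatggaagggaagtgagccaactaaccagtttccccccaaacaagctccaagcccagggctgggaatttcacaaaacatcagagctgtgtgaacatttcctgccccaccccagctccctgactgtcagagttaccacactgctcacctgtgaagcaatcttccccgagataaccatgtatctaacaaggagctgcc
S100a4: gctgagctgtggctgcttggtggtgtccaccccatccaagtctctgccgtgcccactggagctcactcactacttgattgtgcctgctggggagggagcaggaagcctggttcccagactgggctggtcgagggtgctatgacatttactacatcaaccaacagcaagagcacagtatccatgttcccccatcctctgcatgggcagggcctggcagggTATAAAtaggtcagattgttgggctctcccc
S100a11: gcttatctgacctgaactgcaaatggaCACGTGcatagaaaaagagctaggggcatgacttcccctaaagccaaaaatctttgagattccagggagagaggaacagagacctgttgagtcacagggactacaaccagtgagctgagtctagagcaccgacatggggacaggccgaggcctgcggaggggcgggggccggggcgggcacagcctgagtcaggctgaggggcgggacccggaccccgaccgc
The windows are chr3:90668821-90669070 for *S100a8*, chr3:90603520-90603769 for *S100a4* and chr3:93520246-93520495 for *S100a11*, all on the plus strand, and chr3:90695722-90695971 on the minus strand for *S100a9*. The first base of the match lies 30 bases before the start in *S100a8*, 31 in *S100a4*, 236 in *S100a9* and 223 in *S100a11*. Of 32851 mouse promoter windows of the same length, 12.4% hold TATAAA, 9.56% hold TTGCNNAA and 6.02% hold CACGTG, at any place and on either strand. A match somewhere in a window is therefore not rare, and the share at the distances and strand given above was not counted. The *S100a6* window holds none of the 3 motifs, and *S100a10* was not searched, since no window was available for it. A match is a description of the letters and not a site shown to be used.

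Each library held 30782166 to 92613500 reads that had been counted on a gene. The targeted gene, listed as *Arntl*, was low, from 0.468 to 1.10 CPM (edgeR's read counts relative to library size, corrected by TMM factors) in KO untreated against 0.895 to 1.71 in WT untreated, and from 0.337 to 1.52 in KO IMQ against 0.561 to 1.87 in WT IMQ. The library labelled KO IMQ 1 had the 1.52 CPM, inside the WT IMQ range, and WT IMQ 1 had the 0.561, inside the KO IMQ range. Without IMQ the ranges also met, since KO untreated 1 had the 1.10 CPM, inside the WT range, and WT untreated 4 the 0.895, inside the KO range. These are counts over the whole gene, not over the floxed part, so they check the labels only weakly. The library labelled KO IMQ 1 and WT IMQ 3 had the largest TMM factors, and results that rest on them are given with and without them. Of the genes that define neutrophils, the 8 secondary and tertiary granule genes together reached 52638 to 114491 CPM in every library.

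*S100a9* and *S100a8* stood far above the other members. Per kilobase of exon, *S100a9* averaged 68641 ± 3686 CPM (SD, n = 5) and *S100a8* 51635 ± 2876 in WT untreated, and their libraries did not overlap. *S100a11* followed at 2250 ± 303 and *S100a6* at 1351 ± 102, again without overlap. *S100a4* at 14.5 ± 4.41 and *S100a10* at 8.15 ± 2.61 were the lowest, and their ranges of 9.99 to 21.5 and 5.65 to 12.2 overlapped, so their order is not larger than the spread. In WT IMQ, *S100a6* averaged 2084 ± 305 CPM per kilobase and *S100a11* 1924 ± 564, and in KO IMQ they averaged 1451 ± 539 and 1413 ± 487, so that these neighbours in the order overlapped after IMQ. *S100a9* was the gene with the highest or the next highest count in every library, and *S100a8* ranked between 2 and 4.

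*S100a8*, the smaller subunit of calprotectin, was at 26622, 23156, 24199, 25570 and 25926 CPM in WT untreated and at 23766, 26460, 25546, 24137 and 19541 CPM in KO untreated. After IMQ it was at 29554, 28720, 21826, 27216 and 25103 CPM in WT and at 12182, 26226, 25379, 30456 and 17925 CPM in KO. The 4 groups overlapped, and the spread was widest in KO IMQ, where the library labelled KO IMQ 1 had the lowest value of all 20. *S100a9*, its partner, was at 35509, 33348, 34884, 37150 and 38261 CPM in WT untreated and at 35577, 38315, 37165, 36680 and 29722 CPM in KO untreated. After IMQ *S100a9* was at 36905, 36356, 27283, 34924 and 35402 CPM in WT and at 16497, 34937, 35038, 37381 and 27363 CPM in KO. The lowest *S100a9* values were again in the library labelled KO IMQ 1 and in WT IMQ 3.

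**Figure D1:**
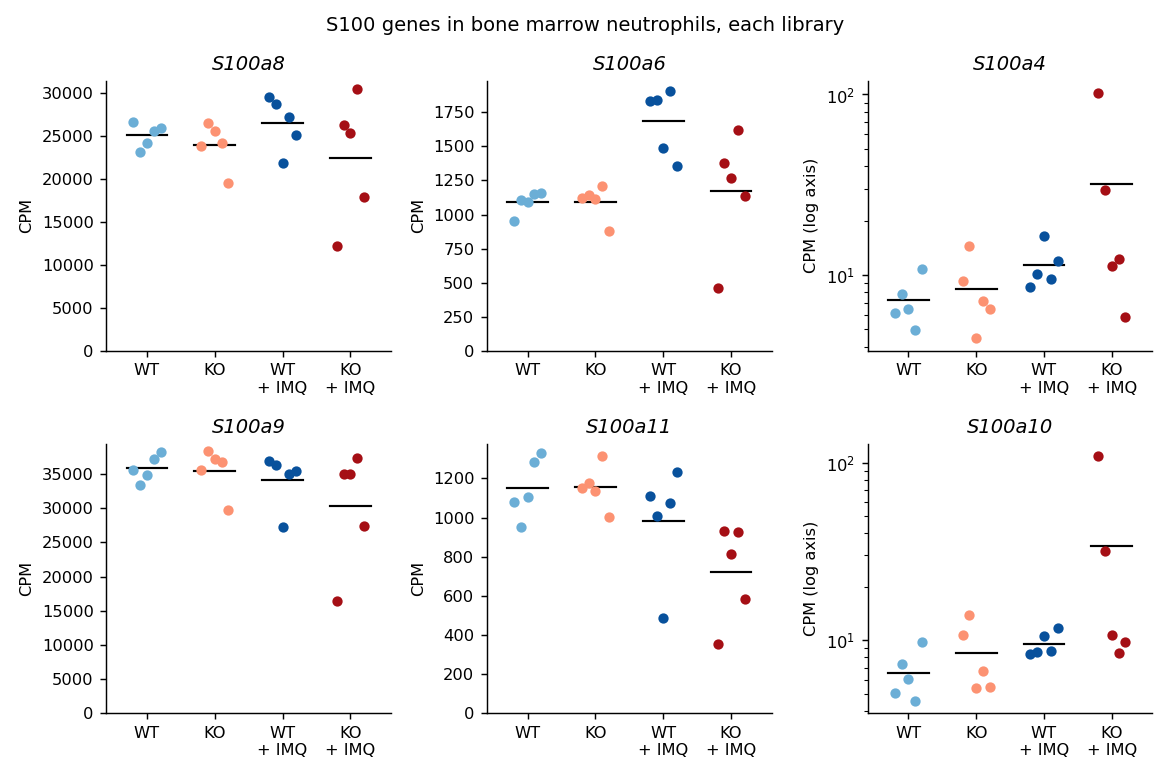
CPM of each S100 gene (y axis, linear from 0 except for *S100a4* and *S100a10*, which have a log axis) in the 4 groups (x axis, WT and KO without and with IMQ). Each point is 1 library and each line the mean of 5; *S100a6* in WT IMQ lies above WT untreated without overlap, *S100a11* in KO IMQ lies under KO untreated without overlap, and 1 library of KO IMQ stands at 102 CPM of *S100a4* and 109 CPM of *S100a10*.

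*S100a6* was at 954, 1108, 1092, 1151 and 1159 CPM in WT untreated and at 1837, 1838, 1492, 1908 and 1353 CPM in WT IMQ, where every library was higher. In KO untreated *S100a6* was at 1120, 1140, 1116, 1207 and 875 CPM, and in KO IMQ it was at 463, 1379, 1270, 1623 and 1136 CPM, so that these 2 groups overlapped. *S100a11* was at 1079, 953, 1103, 1285 and 1329 CPM in WT untreated and at 1109, 1010, 489, 1076 and 1232 CPM in WT IMQ, with a single low library in the treated group. In KO untreated *S100a11* was at 1153, 1174, 1135, 1316 and 1002 CPM, and in KO IMQ it was at 354, 931, 814, 926 and 586 CPM, lower in every library. The annotation also lists a pseudogene of *S100a11*, *S100a11-ps*, and reads that the copies share could have been split or lost.

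*S100a4* was at 6.16, 7.86, 6.47, 4.98 and 10.7 CPM in WT untreated and at 8.57, 10.1, 16.4, 9.47 and 11.9 CPM in WT IMQ. In KO untreated *S100a4* was at 9.21, 14.5, 4.44, 7.15 and 6.50 CPM, and in KO IMQ it was at 102, 29.6, 11.2, 12.2 and 5.84 CPM. The groups overlapped, and the library labelled KO IMQ 1 and KO IMQ 2 were the highest of all 20. *S100a10* was at 5.05, 7.32, 6.03, 4.54 and 9.76 CPM in WT untreated and at 8.38, 8.54, 10.5, 8.70 and 11.7 CPM in WT IMQ. In KO untreated *S100a10* was at 10.7, 13.8, 5.38, 6.72 and 5.48 CPM, and in KO IMQ it was at 109, 31.8, 10.7, 8.44 and 9.80 CPM. The same pair of libraries was the highest for both genes.

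Between the untreated genotypes, 0 of the 6 S100 genes passed the test, where 0.207% of all tested genes were called. The test was the quasi-likelihood F test of edgeR, with p adjusted by Benjamini-Hochberg over 14030 tested genes and a threshold of 0.05. None of the 6 had an unadjusted p under 0.05 (2.19% of all genes did), the libraries of the genotypes overlapped for all 6 (they did not for 1.52% of all genes), and DESeq2 and limma also called 0. The log2 fold change of KO against WT was -0.07 for *S100a8* (95% interval -0.50 to 0.35), -0.01 for *S100a9* (-0.42 to 0.40), 0.00 for *S100a6* (-0.45 to 0.45) and 0.01 for *S100a11* (-0.48 to 0.50). The intervals of the low genes were wider, from -0.93 to 1.35 around 0.21 for *S100a4* and from -0.76 to 1.5 around 0.37 for *S100a10*. These differences were within the spread between libraries.

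IMQ in WT mice gave no call, and *S100a6* came nearest to the threshold. Its log2 fold change was 0.63 (SE 0.22), with an adjusted p of 0.0969 from edgeR, so it did not pass the test, although the 5 treated libraries lay above the 5 untreated ones, a pattern that 6.43% of all tested genes showed in 1 direction or the other. In this comparison 0 of the 6 genes were called by edgeR, DESeq2 or limma, against 3.95% of all genes by edgeR, and *S100a6* alone had an unadjusted p under 0.05, as 22.3% of all genes did. When only the 2 groups were fitted *S100a6* was called (log2 fold change 0.61, adjusted p = 0.0472, edgeR), where 1.44% of all genes were. Without the library labelled KO IMQ 1 and WT IMQ 3 *S100a6* was called as well (0.66, adjusted p = 0.00589, edgeR), where 6.35% of all genes were. That omission was chosen after seeing the data, and KO IMQ 1 belongs to neither WT group. *S100a8* at 0.08 (95% interval -0.35 to 0.50) and *S100a9* at -0.07 (-0.48 to 0.34) had intervals on both sides of 0. *S100a4* at 0.64 (-0.50 to 1.78), *S100a10* at 0.55 (-0.58 to 1.68) and *S100a11* at -0.23 (-0.72 to 0.27) did too, with wider intervals.

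IMQ in KO mice gave 3 calls among the 6 genes, against 23.5% of all tested genes. *S100a10* and *S100a4* rose and *S100a11* fell, where 14.4% of all genes were called higher and 9.04% lower. The log2 fold change was 2.01 for *S100a10* (SE 0.56, adjusted p = 0.0181, edgeR), 1.93 for *S100a4* (SE 0.56, adjusted p = 0.0215) and -0.68 for *S100a11* (SE 0.24, adjusted p = 0.0448). *S100a11* was lower in KO IMQ without overlap of the libraries, which held for 20.1% of all genes in either direction. *S100a8* at -0.09 (95% interval -0.52 to 0.33), *S100a9* at -0.23 (-0.64 to 0.18) and *S100a6* at 0.10 (-0.35 to 0.56) were not called. The 3 called genes were also the 3 with an unadjusted p under 0.05, which 39.3% of all genes had. The median log2 fold change over the 6 was 0.01 and the median over all tested genes 0.02.

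These 3 calls depended on the library labelled KO IMQ 1 and on the fit. Without that library the log2 fold change was 0.81 for *S100a4* (adjusted p = 0.137, edgeR), 0.84 for *S100a10* (adjusted p = 0.106) and -0.51 for *S100a11* (adjusted p = 0.0961), and 0 of the 6 were called, although without both this library and WT IMQ 3 *S100a11* was called at -0.48 (adjusted p = 0.00989) and *S100a6* at 0.33 (adjusted p = 0.0394). Of all genes 15% were called without that library and 28.8% without both, so the 2 of 6 members are near that share. Leaving out both was chosen after seeing the data. With the replicate number as a block, only *S100a10* was called (1.61, adjusted p = 0.0389, edgeR), while *S100a4* was at 1.58 (adjusted p = 0.0526) and *S100a11* at -0.70 (adjusted p = 0.0515). Residuals of libraries with the same number were positively correlated here, but the labels do not say that these libraries are pairs. A fit of only the 2 groups called 0 of the 6, with adjusted p of 0.0571, 0.0629 and 0.0774 for *S100a10*, *S100a4* and *S100a11* by edgeR. With 1 library left out at a time, *S100a10* was called in 9 of 10 fits, *S100a4* in 8, its call also being lost without KO untreated 4 (1.89, adjusted p = 0.0522), and *S100a11* in 2, those without KO IMQ 2 or KO IMQ 4.

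Between the genotypes under IMQ, 0 of the 6 genes passed the test, where 0.292% of all tested genes did. *S100a10*, *S100a4* and *S100a6* had unadjusted p under 0.05, as 19.9% of all genes did, and the libraries overlapped for all 6, where 1.07% of all genes showed no overlap. The log2 fold change of KO against WT was 1.83 for *S100a10* (SE 0.55, adjusted p = 0.173, edgeR), 1.51 for *S100a4* (SE 0.55, adjusted p = 0.213), -0.52 for *S100a6* (SE 0.22, adjusted p = 0.230) and -0.45 for *S100a11* (SE 0.24, adjusted p = 0.274). *S100a8* was at -0.24 (95% interval -0.66 to 0.19) and *S100a9* at -0.18 (-0.59 to 0.23). DESeq2 called *S100a10* (1.79, adjusted p = 0.0359), and limma called 0. Without WT IMQ 3 edgeR called *S100a10* (1.86, adjusted p = 0.0390) and *S100a11* (-0.61, adjusted p = 0.0423), and without KO IMQ 4 it called *S100a10* (2.07, adjusted p = 0.0496). Of all genes 21.9% were called without WT IMQ 3 and 1.96% without KO IMQ 4. Without the library labelled KO IMQ 1 the *S100a10* and *S100a4* values were 0.67 and 0.39.

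**Figure D2:**
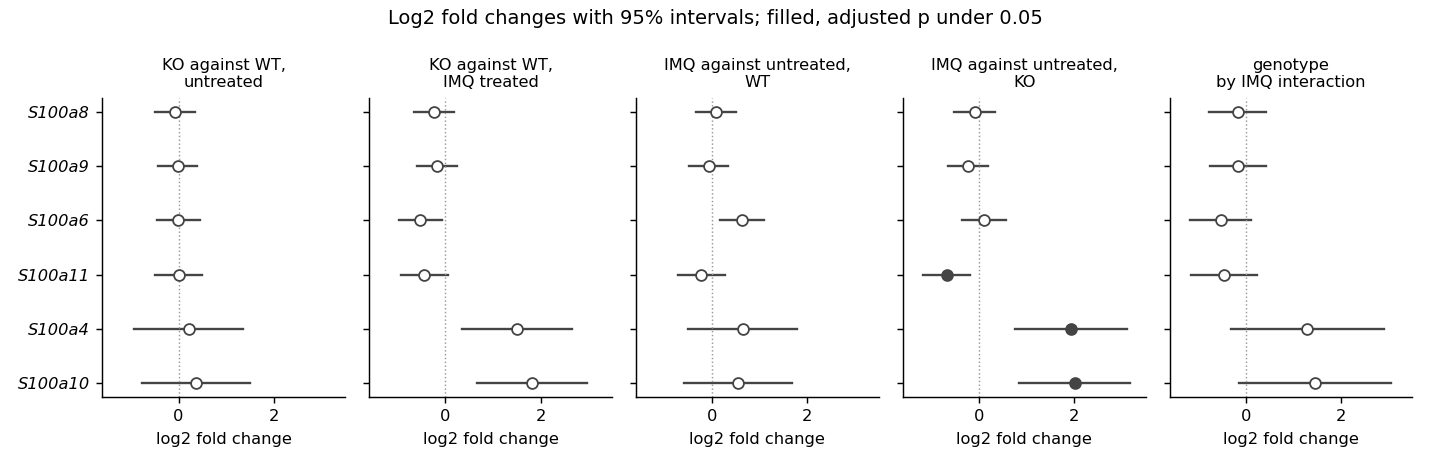
Log2 fold changes (x axis) of the 6 S100 genes (rows) in the 4 comparisons and the interaction, with 95% intervals as lines. Filled points have an adjusted p under 0.05 by edgeR, which holds for *S100a10* and *S100a4* (higher) and *S100a11* (lower) in IMQ against untreated KO and for no other point.

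Whether the effect of IMQ differed between the genotypes was tested by the interaction, in which 0% of all genes were called by edgeR (721 genes, or 5.14%, had an unadjusted p under 0.05, none of them among the 6). The difference of the log2 fold changes, KO minus WT, was 1.46 for *S100a10* (95% interval -0.14 to 3.06), 1.29 for *S100a4* (-0.32 to 2.90), -0.52 for *S100a6* (-1.16 to 0.12) and -0.45 for *S100a11* (-1.15 to 0.24). DESeq2 and limma called 0 of the 6 as well. The calls made in KO and not in WT are therefore not shown to be a difference between the genotypes.

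The 6 genes together took 6.23% ± 0.15 of the gene counts in WT untreated, 6.12% ± 0.52 in KO untreated, 5.95% ± 0.30 in WT IMQ and 5.74% ± 1.10 in KO IMQ (SD, n = 5). *S100a9* and *S100a8* made up nearly all of it. In KO IMQ the share ran from 4.10% in the library labelled KO IMQ 1 to 6.59% in KO IMQ 2, a range that held every other library except KO untreated 2 at 6.72%.

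The balance between the calprotectin subunits was measured as the *S100a8* count divided by the *S100a9* count of the same library, which needs no scaling between libraries. The ratio was 0.750, 0.694, 0.694, 0.688 and 0.678 in WT untreated and 0.801, 0.790, 0.800, 0.779 and 0.709 in WT IMQ. In KO untreated it was 0.668, 0.691, 0.687, 0.658 and 0.657, and in KO IMQ it was 0.738, 0.751, 0.724, 0.815 and 0.655. In both genotypes 4 of the 5 treated libraries lay above every untreated library. The mean log2 ratio was 0.15 higher with IMQ in WT (two-sided exact permutation test, p = 0.0159, adjusted p = 0.0635 over 4 comparisons) and 0.13 higher with IMQ in KO (exact p = 0.0556, adjusted p = 0.0741). KO minus WT was -0.06 without IMQ (exact p = 0.0556, adjusted p = 0.0741) and -0.08 with IMQ (exact p = 0.238). None passed the adjustment, and the smallest p that the 252 splits allow is 0.00794. Without KO IMQ 5 the difference in KO was 0.17 with an adjusted exact p of 0.0317.

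**Figure D3:**
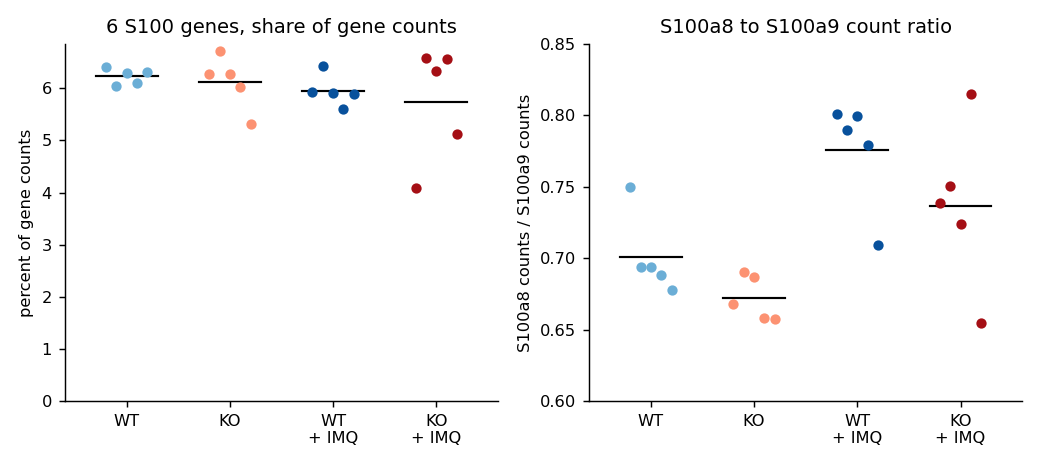
Left, percent of gene counts in the 6 S100 genes (y axis, from 0); right, the *S100a8* count divided by the *S100a9* count (y axis from 0.60 to 0.85), for each library in the 4 groups, with lines at the means. The ratio means are 0.701 in WT, 0.672 in KO, 0.776 in WT IMQ and 0.737 in KO IMQ, and 1 library of each treated group lies low.

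Some markers of monocytes were high in the libraries that were high for *S100a4* and *S100a10*. Of 13 monocyte and macrophage markers, 5 were called higher with IMQ in KO, where 14.4% of all genes were, and none lower: *Ccr2*, the receptor of monocyte egress, by 2.30 on the log2 scale (SE 0.57, adjusted p = 0.0117, edgeR), *F13a1* by 2.12, *Ms4a6c* by 1.92, *Klf4* by 1.89 and *Irf8* by 1.62. Other markers had lower means, *Csf1r*, the receptor of the macrophage growth factor, being at 203 CPM in KO untreated and 99.4 CPM in KO IMQ (log2 fold change -1.03, adjusted p = 0.167, edgeR). For each of the 5 the highest values of KO IMQ were in the library labelled KO IMQ 1 and then in KO IMQ 2. *Klf4*, a transcription factor of monocytes, was at 137, 42.3, 10.8, 9.36 and 6.51 CPM in KO IMQ against 8.40 to 16.5 CPM in KO untreated, and *Irf8*, another, was at 133, 46.1, 14.1, 13.7 and 8.29 CPM against 9.07 to 22.3 CPM, so that 3 of the 5 treated libraries lay in or under the untreated range. Without the library labelled KO IMQ 1, *Ccr2* alone of the 5 was called (1.05, adjusted p = 0.0455, edgeR), while *F13a1* was at 1.10 (adjusted p = 0.109), *Ms4a6c* at 0.94 (adjusted p = 0.0650), *Klf4* at 0.62 (adjusted p = 0.326) and *Irf8* at 0.55 (adjusted p = 0.331).

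The summed level of the 13 markers did not follow *S100a4* throughout. It was 2889, 1491, 930, 1335 and 736 CPM in KO IMQ and 936 to 1185 CPM in the untreated groups, and none of the markers was at 0. WT IMQ 1, with a sum of 1710 CPM, had *S100a4* at only 8.57 CPM. *Ms4a6c* was at 197 and 69.4 CPM in the library labelled KO IMQ 1 and KO IMQ 2 and at 11.1 to 28.2 CPM elsewhere, but it is also the gene most like both S100 genes by correlation, as given further on, so its likeness here is a description. The part of these markers in the *S100a4* and *S100a10* results was not tested. In bulk libraries, fewer cells of a type and less RNA per cell cannot be told apart.

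*S100a11* was lowest in the libraries where genes of mature neutrophils were lowest. Of 9 such genes, *Csf3r*, the G-CSF receptor, fell by 1.38 on the log2 scale and *Il1b* by 2.02 with IMQ in KO (adjusted p = 0.0223 and 0.0275, edgeR), and none rose, so the count called, 2 of 9, is near the 23.5% of all genes. Neither was called without the library labelled KO IMQ 1 (-1.18 and -1.82, adjusted p = 0.0530 and 0.0662), without KO IMQ 5 or without KO untreated 4. The sum of the 9 was 2874, 11227, 7852, 11727 and 6198 CPM in KO IMQ, 12511, 11995, 4387, 15173 and 14813 CPM in WT IMQ, and 11518 to 16165 CPM in the untreated groups. The 4 libraries with the lowest sums, the library labelled KO IMQ 1, WT IMQ 3, KO IMQ 5 and KO IMQ 3, were also those with the lowest *S100a11*, in the same order. None of the 9 was at 0, and their part in the *S100a11* result was not tested.

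**Figure D4:**
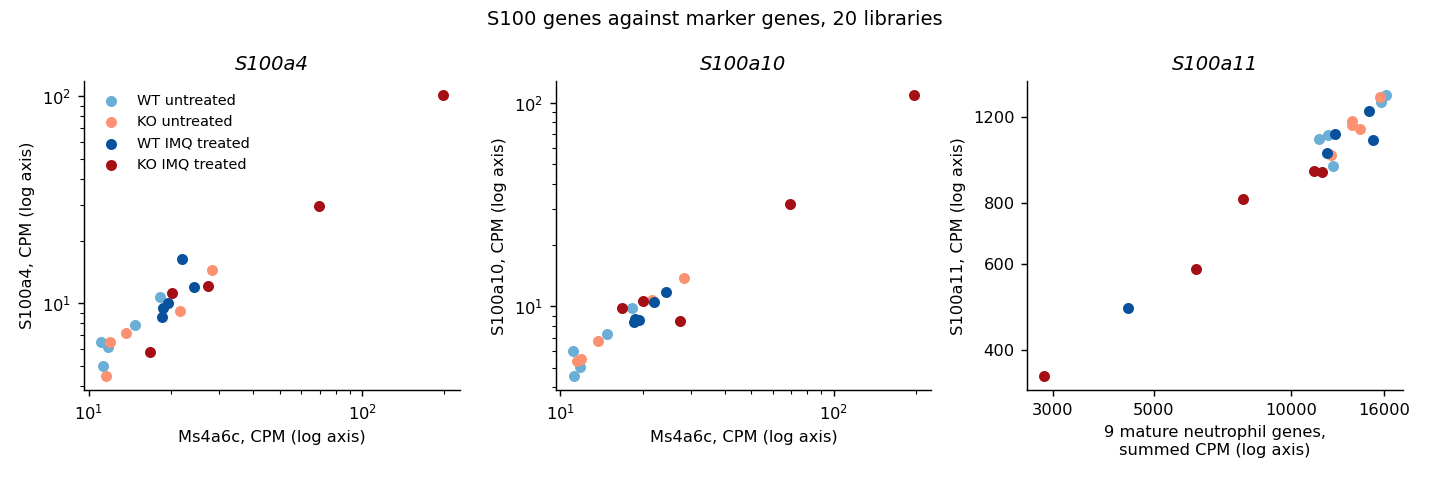
CPM of *S100a4* and *S100a10* (y axes, log) against CPM of the monocyte gene *Ms4a6c* (x axes, log), and CPM of *S100a11* (y axis, log) against the summed CPM of 9 mature neutrophil genes (x axis, log), 1 point per library coloured by group. *Ms4a6c* is the gene most correlated with both, chosen for that, and the KO IMQ points at 69.4 and 197 CPM of *Ms4a6c* hold the highest *S100a4* and *S100a10*, and the points at 7852 summed CPM and less hold the lowest *S100a11*.

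Among the 6 genes the pairs that varied most alike over the 20 libraries were *S100a4* with *S100a10* (Pearson r = 0.96, Spearman rho = 0.83) and *S100a8* with *S100a9* (r = 0.93, rho = 0.69), on log2 CPM. The genes most like each member were picked as the highest of 7018 compared genes, so they are a description with no test. For *S100a4* they were *Ms4a6c* (r = 0.97), *Crip1* and *Lrp1*, and for *S100a10* they were *Ms4a6c* (r = 0.98), *Crip1* and *Ifi30*. Without the 2 libraries farthest from the median, which are the library labelled KO IMQ 1 and KO IMQ 2, r with *Ms4a6c* was 0.89 for *S100a4* and 0.90 for *S100a10*. *S100a8* was most like *Wfdc21* (r = 0.96), *Arpc3* and then *S100a9*, and *S100a9* was most like *Ccdc63*, *Cd52* and *Msra* (each r = 0.94). Without the library labelled KO IMQ 1 and WT IMQ 3, r with *Ccdc63* was 0.70, so that likeness rested in part on them. *S100a6* was most like *Fis1* (r = 0.95), *Prdx5* and *Alox5ap*. *S100a11* was most like *Slpi* (r = 0.99), *Atg7* and *Tyrobp*, and r with *Slpi* was 0.96 without the library labelled KO IMQ 1 and WT IMQ 3. These libraries share the scaling and the groups, which such correlations include.

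Of 11 other S100 genes that were counted, 7 passed the filter, and all were low. *S100a13* was at 22.5 to 35.9 CPM over the 20 libraries and *S100a1* at 4.70 to 33.1 CPM, while *S100a2*, *S100a3*, *S100a7a*, *S100a16* and *S100b* were at most 2.25 CPM. With IMQ in KO, 3 of the 7 fell and none rose, where 9.04% of all genes were called lower and 23.5% in either direction. *S100a3* fell by 1.16 on the log2 scale (SE 0.30, adjusted p = 0.0134, edgeR), from 1.47 to 2.25 CPM in KO untreated to 0.428 to 1.16 CPM in KO IMQ. *S100a7a*, the mouse relative of psoriasin, fell by 1.07 (SE 0.32, adjusted p = 0.0244), and it was not called without the library labelled KO IMQ 1 (-0.93, adjusted p = 0.0577), without KO IMQ 5 or without KO untreated 4. *S100b*, best known from astrocytes, fell by 2.37 (SE 0.68, adjusted p = 0.0209), with only 2 to 10 counts per library in KO IMQ and 7 to 57 in KO untreated, and it was not called without KO untreated 1 (-2.14, adjusted p = 0.0513, edgeR).

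The other 4 were not called in KO: *S100a1* at 1.02 (adjusted p = 0.0546, edgeR), *S100a13* at 0.24 (adjusted p = 0.0724), *S100a2* at -1.04 (adjusted p = 0.0788) and *S100a16* at -0.66 (adjusted p = 0.524). In WT none of the 7 was called with IMQ, *S100a3* being at -1.0 (adjusted p = 0.0619) and *S100a1* at 0.89 (adjusted p = 0.165), and none was called between the genotypes. *S100a1* and *S100a13* overlap on opposite strands, and the strand setting of the counting is not given in the sources used here. *S100a2* lies within the span of *S100a3* on the same strand, so where they overlap their reads cannot be told apart. Within 100 kb of a member 9 other tested genes lie, and only *S100a3* and *S100a7a* among them were called, both with IMQ in KO, where 23.5% of all genes were called.

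**Figure D5:**
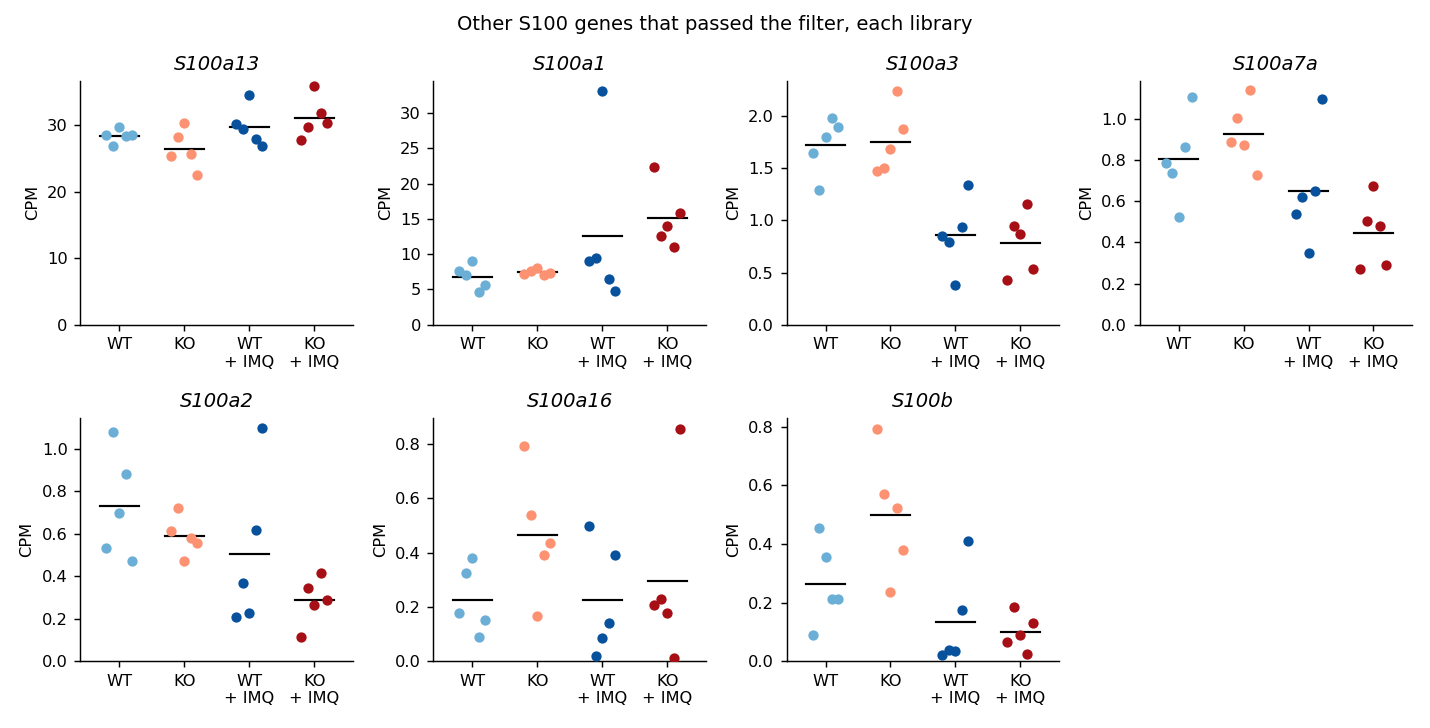
CPM (y axes, linear from 0) of the 7 other S100 genes that passed the filter in the 4 groups (x axes), 1 point per library with lines at the means. *S100a3*, *S100a7a* and *S100b* in KO IMQ lie under KO untreated on average, and none of the 7 exceeds 35.9 CPM.

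Of 12 genes for receptors and signaling partners of extracellular S100 proteins, 4 were called with IMQ in KO, 1 higher and 3 lower, where 14.4% of all genes were called higher and 9.04% lower. *Cd14*, the co-receptor of Toll-like receptor 4, rose by 1.75 on the log2 scale (SE 0.46, adjusted p = 0.0152, edgeR), from 53.9 ± 19.2 to 181 ± 103 CPM (SD, n = 5). *Ly96*, which encodes the MD-2 subunit that Toll-like receptor 4 needs to bind its ligands, fell by 1.15 (SE 0.35, adjusted p = 0.0263), from 7.32 ± 1.25 to 3.29 ± 1.35 CPM. *Emb*, a receptor for *S100a8* and *S100a9*, fell by 0.76 (adjusted p = 0.0258), and *Alcam*, an adhesion molecule, fell by 0.61 (adjusted p = 0.0287). Without the library labelled KO IMQ 1, *Ly96* (-1.11, adjusted p = 0.0564) and *Alcam* (-0.53, adjusted p = 0.0789) were not called. *Cd14* was called in all 10 fits with 1 KO library left out, *Emb* in 7, *Ly96* in 6 and *Alcam* in 6. *Tlr4* itself was at 64.0 ± 4.65 CPM in KO untreated and 49.6 ± 18.6 CPM in KO IMQ and was not called. In WT none of the 12 was called, with *Cd14* at 1.60 (adjusted p = 0.0553) and *Mcam* at 0.96 (adjusted p = 0.0803) nearest to the threshold, and none was called between the genotypes, where *Mcam* was at 0.74 without IMQ (unadjusted p = 0.0280, edgeR) and -0.75 with IMQ (unadjusted p = 0.0265), followed by *Cd36* at 0.76 without IMQ and *Cd33* at -0.59 with IMQ.

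Of 11 genes for proteins that S100 proteins bind inside the cell, *Sugt1*, a co-chaperone bound by *S100a6*, rose by 0.35 with IMQ in KO (SE 0.11, adjusted p = 0.0362, edgeR), and no other was called. *Sugt1* was called in 4 of the 10 fits with 1 KO library left out. *Ahnak*, a scaffold that *S100a10* binds together with annexin A2, was at 1.39 (adjusted p = 0.0661). In WT, *Sugt1* was at 0.33 (adjusted p = 0.0952) and *Anxa1* at 0.40 (adjusted p = 0.131). Between the genotypes 0 of the 11 were called. Under IMQ 5 had an unadjusted p under 0.05 (19.9% of all genes did), the smallest for *Anxa11* at -0.42 and *Myh9* at -0.43. Without IMQ 0 did (2.19%), and the smallest were for *Iqgap1* at 0.20 and *Ahnak* at 0.46 (unadjusted p = 0.308 and 0.399, edgeR).

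None of 10 genes listed as regulators of *S100a8* and *S100a9* transcription, among them the targeted gene *Arntl*, was called in any comparison by edgeR. Between the untreated genotypes 2 had an unadjusted p under 0.05 (2.19% of all genes did), *Hif1a* and *Arntl*. *Arntl* is the targeted gene, so a lower value in KO was set by the design and does not count as a result. Between the genotypes under IMQ 1 of the 10 had an unadjusted p under 0.05 (19.9%). With IMQ, 0 did in WT (22.3%) and 1 did in KO (39.3%), and in the interaction 2 did (5.14%). *Hif1a* was at 0.67 and *Arntl* at -0.90 in KO against WT without IMQ, and *Cebpb* at 0.63 and *Klf5* at 0.43 with IMQ. *Cebpa* was at -0.60 and *Stat3* at 0.25 with IMQ in WT, and *Hif1a* at -0.71 and *Cebpd* at -0.44 with IMQ in KO. *Cebpe*, which drives the later steps of granulocyte differentiation, averaged 382 ± 34.2 CPM in KO untreated and 433 ± 93.7 CPM in KO IMQ.

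The granule genes, which mark stages of neutrophil development, gave no call in any comparison by edgeR, either among 5 primary granule genes or among 8 secondary and tertiary ones. With IMQ in KO, 1 of the 5 and 3 of the 8 had an unadjusted p under 0.05, as 39.3% of all genes did. The median log2 fold change there was 1.04 for the primary and 0.05 for the secondary and tertiary genes, against 0.02 over all tested genes. The 5 primary granule genes summed to 366 to 944 CPM in KO untreated and 250 to 1668 CPM in KO IMQ.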

How the data were processed

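The authors prepared poly(A) libraries from the neutrophils of each mouse, and their methods name TopHat and mm10 for alignment, whereas the submitters' processing notes list STAR 2.7.8a and HTSeq 2.0.1 with mm10. The deposited values are raw read counts per gene, without normalization, and the annotation and strand setting are not given in the sources used here. Rows that name no gene (51.85% to 57.79% on no feature, 0.335% to 0.431% ambiguous, 4.37% to 6.5% not unique) were left out of library sizes. For 40 pairs of libraries within groups, a chi-square test of their counts gave 18.2 to 787 per degree of freedom, so counting error was small beside the spread, and no library was a repeat of another.

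Counts were fitted in R 4.3.3 with edgeR 4.0.16 (quasi-likelihood, TMM factors of 0.855 to 1.38, 1 model of 4 groups, 14030 of 24421 genes after its filter), with Benjamini-Hochberg adjustment over all tested genes. Per-length levels divide CPM by exon bases of the annotation given for mm10. Ratios were compared by exact permutation. Likeness is the correlation of log2 CPM (prior count 2) over 20 libraries with genes of at least 10 CPM. Alternatives used DESeq2 1.42.0, limma 3.58.1 on log2(CPM + 0.1), other factors and filters, a fit of only 2 groups, a replicate block and each library left out. The CPM given to limma came from library totals without TMM factors, so that alternative changes both the test and the scaling. Leaving out the library labelled KO IMQ 1 and WT IMQ 3 together, and the fits of list genes with 1 KO library left out, were chosen after seeing the data. *Csf1r* was named after its values were seen.

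Pairing by replicate number was checked through the correlation of residuals between libraries of the same number. It was 0.128 to 0.426 for IMQ and untreated KO, where all 5 exceeded 0.1, and 0.0728 to 0.384 for IMQ and untreated WT. It was -0.441 to 0.206 between untreated genotypes and -0.497 to 0.343 between IMQ genotypes. The main tests did not pair libraries, and the replicate number was used only as a block in an alternative fit. Libraries of different numbers were not compared in this way, and the labels do not say what the number stands for. Each library is from 1 mouse.

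Named genes are the 6 members, every other S100 gene that passed the filter, up to 4 called genes (or the 2 with the smallest p) from the receptor, partner and regulator lists, up to 3 called genes from marker lists (all 5 monocyte markers called are given), and the 3 genes most like each member. *Tlr4*, *Cebpe*, *Tyms*, *Mcm5* and *Ahnak* in KO were added after their values were seen. The members and the lists were chosen with earlier results of these data known.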

Additional observations from a re-analysis of the deposited data

Results flagged for a closer look

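Within groups of 5 libraries, 6 of 28 groups of values had 1 library farther from the rest than Dixon's 95% limit allows. Chance alone gives about 1 in 20 only for independent values with a normal spread. The gene values here were CPM and not log2 CPM, and *S100a4* and *S100a10* varied alike (Pearson r = 0.96), so the 6 cannot be set against that rate. The library labelled KO IMQ 1 was high for *S100a4*, at 102 CPM with the next library at 29.6, and for *S100a10*, at 109 CPM with the next at 31.8. WT IMQ 3 was low for *S100a9*, at 27283 CPM against 34924 or more in the rest of its group. KO untreated 5 was low for *S100a6*, at 875 CPM against 1116 or more. For the log2 ratio of *S100a8* to *S100a9* counts, WT untreated 1 was high at -0.42, with the next at -0.53, and WT IMQ 5 was low at -0.50, with the next at -0.36. The lowest *S100a11* in KO IMQ (354 CPM) and the lowest *S100a9* in KO IMQ (16497 CPM) were not past the limit. No cause was tested for any of these.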

How the results depend on the processing

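With IMQ in KO, 3 of the 6 S100 genes were called, 1 with limma, 1 with the replicate block, 0 in a fit of only the 2 groups, and 0 to 3 when 1 library was left out. With IMQ in WT, 0 were called, 1 in the 2-group fit and 1 without both the library labelled KO IMQ 1 and WT IMQ 3. Between the genotypes under IMQ, 0 were called, 1 with DESeq2, and 0 to 2 with 1 library left out. The other comparisons gave 0 under every alternative run. The replicate block changed no other call of a member. The cause of these changes was not tested, except that fewer libraries and other fits change the estimate of the spread.

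The mean share of the 6 genes, without the 10 highest other genes in the total, was 7.06%, 6.85% and 6.70% in WT untreated, KO untreated and WT IMQ, and 6.45% in KO IMQ, since the total shrinks. With 1 library left out, the log2 ratio of *S100a8* to *S100a9* ran from 0.13 to 0.18 with IMQ in WT and from 0.091 to 0.17 with IMQ in KO (adjusted exact p from 0.0317, without KO IMQ 5, to 0.175), from -0.071 to -0.035 between untreated genotypes and from -0.11 to -0.035 under IMQ. No paired test of the ratio was run.

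Values that changed sign were near 0. KO against WT without IMQ, *S100a6* was 0.0113 with RLE factors and with DESeq2, 0.00759 without factors, 0.00495 with limma, 0.00931 with at least 10 counts and 0.00562 in the 2-group fit, and *S100a11* was -0.00644 with factors made without the 6 genes and -0.00802 without a filter. With 1 library left out these ran from -0.065 to 0.046 for *S100a6*, -0.058 to 0.046 for *S100a11*, -0.048 to 0.022 for *S100a9* and -0.080 to 0.38 for *S100a4*. With IMQ in KO, *S100a8* ran from -0.20 to 0.066 and *S100a6* from -0.016 to 0.31, *S100a8* being 0.088 without both the library labelled KO IMQ 1 and WT IMQ 3. In the interaction, *S100a8* ran from -0.28 to 0.013 and *S100a9* from -0.22 to 0.017. *S100a11* with IMQ in KO had adjusted p of 0.0503 with factors made without the 6 genes and 0.0663 without a filter, and *S100a4* and *S100a10* had 0.0984 and 0.0825 with limma.

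Without factors the median of all genes shifted by 0.20 between the genotypes under IMQ, 0.13 with IMQ in KO and 0.19 in the interaction. With limma, which also used no factors, it shifted by 0.19 between the genotypes under IMQ, 0.081 with IMQ in KO and 0.17 in the interaction. The list genes are the 7 other S100 genes, 12 receptors, 11 partners and 10 regulators, and the share of all genes called in the same fit is given in brackets. With IMQ in KO 8 were called (23.5%), 3 without KO untreated 4 (11.8%), up to 11 without KO IMQ 2 (28.6%), and 13 without both the library labelled KO IMQ 1 and WT IMQ 3 (28.8%). In WT, 0 were called (3.95%), 3 with DESeq2 (10.6%), 6 without WT IMQ 5 (13.9%) and 9 without both libraries (6.35%). Between the genotypes under IMQ 0 were called (0.292%), 6 without WT IMQ 3 (21.9%) and 4 without both (8.89%). Over all genes, calls were 29 between untreated genotypes (59 in the 2-group fit), 41 under IMQ (16 in the 2-group fit, 311 with DESeq2, 3129 without WT IMQ 3, 280 without KO IMQ 4, 1259 without both libraries), 554 with IMQ in WT (1480 with DESeq2, 186 in the 2-group fit, 190 with the block, 326 without a filter, 899 without both libraries, 48 to 1989 with 1 library left out) and 3292 with IMQ in KO (1674 to 4037 with 1 library left out). Of the calls in WT 59.4% were higher, and 24.3% with limma, and under IMQ between genotypes 63.4%, and 74.5% without factors. Low S100 genes such as *S100b*, with 10 counts or fewer per library in KO IMQ, are limited by depth.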

Other observations

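Markers of other cells, from lists of the same kind, also differed, and their part in the S100 results was not tested. With IMQ in KO, 7 of 8 proliferation genes were called higher, where 14.4% of all genes were, led by *Mki67* (log2 fold change 1.72, adjusted p = 0.00525, edgeR), *Top2a* (1.99) and *Ccnb1* (1.96). The 8 summed to 989 to 2241 CPM in KO IMQ against 327 to 577 CPM in KO untreated. With 1 KO library left out, *Tyms* was called in 6 of 10 fits, *Mcm5* in 2 and the rest of the called genes in all 10. Without the library labelled KO IMQ 1, *Tyms* was at 0.87 (adjusted p = 0.0943, edgeR) and *Mcm5* at 0.86 (adjusted p = 0.138). In WT IMQ the same 8 summed to 396 to 2055 CPM, none was called, and the highest sum was in WT IMQ 3, which also had the lowest *S100a11* of its group.

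Among B-lineage markers, *Vpreb3* (log2 fold change -3.12, adjusted p = 0.0148, edgeR) and *Cd79a* (-1.12, adjusted p = 0.0334) fell with IMQ in KO, where 9.04% of all genes were called lower. *Vpreb3* was called in all 10 fits with 1 KO library left out and *Cd79a* in 4. Of 5 T and NK cell markers *Cd3d* fell with IMQ in KO (9.04% of all genes did). The 5 summed to 8.58 to 20.8 CPM in KO IMQ and 15.6 to 22.6 CPM in KO untreated, which overlapped. In WT they summed to 6.08 to 15.4 CPM with IMQ and 15.7 to 24.6 CPM without, and 0 were called. Of 7 eosinophil markers *Prg3*, *Prg2* and *Epx* were higher in KO than in WT under IMQ (log2 fold changes of 3.59, 2.54 and 2.97), where 0.292% of all genes were called. The 7 summed to 39.1 to 206 CPM in KO IMQ and 18.0 to 37.8 CPM in WT IMQ. *Prg2* and *Prg3* fell with IMQ in WT, where 3.95% of all genes were called, and *Siglecf* fell with IMQ in KO, where 9.04% were called lower. Of 5 basophil and mast cell markers *Ms4a2* rose with IMQ in KO (called in 3 of those 10 fits), where 14.4% of all genes were called higher. Of 4 erythroid markers *Alas2* rose with IMQ in WT, where 3.95% of all genes were called. The marker calls in WT and between the genotypes were not followed with 1 library left out. The hemoglobin genes on the erythroid list are at 0 in every library. All of these are calls of edgeR with adjusted p under 0.05.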
